A study of Mus musculus with 19 samples.

Results

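Mouse tumour-associated neutrophils (TANs) obtained after treatment with SM16 (SM16, n = 5, replicates 1 to 5) were compared with TANs for which the labels list no treatment (TAN, n = 3, replicates 1, 2 and 4). The arrays were chosen by sample title and make up 8 of the 19 1-colour Illumina BeadChip arrays of the series, 1 array per RNA preparation. The other 11 arrays hold naive bone marrow neutrophils (NN, n = 7) and neutrophils from the spleens of mice with tumours (G-MDSC, n = 4), and they served mainly to estimate the spread of each gene. SM16 is a small-molecule inhibitor of Alk5, the kinase of the type I TGF-beta receptor. All samples carry the note "clonal mouse", and the labels give no strain, tumour line, dose, duration, age or number of pooled animals. The protocol fields describe cervical biopsies preserved in fixative and were not used. The labels do not state whether replicates were separate animals. The p-values therefore cover only the spread between preparations, pooled over all 4 groups, which may be technical. The median SD of a gene (log2) was 0.24 on the SM16 arrays and 0.43 on the TAN arrays. The pooled spread can thus be smaller than that of the TAN arrays.

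TGF-beta binds a receptor pair in which the type II receptor activates Alk5, and Alk5 then phosphorylates Smad2 and Smad3, which move to the nucleus with Smad4 and change transcription. In tumours TGF-beta restrains inflammatory functions of myeloid cells. Neutrophils of TGF-beta-rich tumours are known for an immunosuppressive state that has been called N2, and those of tumours with TGF-beta signalling blocked for an inflammatory state called N1. The comparison asks which transcripts of tumour neutrophil preparations differ between these settings.

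Levels are log2 intensities after background correction and quantile normalization, and a change is the SM16 mean minus the TAN mean on that scale. A gene was called at an adjusted p under 0.05 over the 9523 genes tested with limma. Of 25697 probes, 10880 to 12492 were detected on the SM16 arrays and 9599 to 10773 on the TAN arrays. The lowest signal of an array lay between 47.5 and 63.1 on all 8 of them. Among the arrays that served for the spread, it was 53.1 to 65.5 on NN replicates 1 to 5. It was 16.1 and 10.3 on NN replicates 6 and 7, and 10.5 to 17.7 on the G-MDSC arrays. The cause of this difference was not tested. The 18 neutrophil markers with a probe, among them S100a8, S100a9 and Csf3r, were detected on all 5 SM16 arrays and all 3 TAN arrays, and their median level was 13.97 to 14.24 on SM16 arrays and 13.96 to 14.14 on TAN arrays.

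The TAN arrays were not alike. Over the genes tested, which are not independent of each other, replicates 1 and 2 correlated at r = 0.992 with each other and at 0.882 and 0.891 with replicate 4. The SM16 arrays correlated with TAN replicate 4 at 0.964 to 0.976 and with TAN replicates 1 and 2 at 0.842 to 0.891. Among the 2522 genes with more than 1 probe past the filter, 276 (10.9%) had probes called in opposite directions when all TAN arrays were used, and 0 had them with TAN replicate 4 alone. The main results are therefore given for all TAN arrays and for TAN replicate 4 alone, and where 2 changes, medians or bounds of a gene or list stand together, the second is the one for TAN replicate 4. The second fit rests on a single TAN array and borrows its spread from the other groups. That array also enters the first fit, so agreement between the fits is partly built in.

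With all TAN arrays 4380 genes were called (46% of those tested). Of these, 1696 (17.8%) rose and 2684 (28.2%) fell in SM16-treated TANs, and the median change over all genes was -0.21. At a change of 2-fold or more 1944 genes were called (20.4%), of which 1089 (11.4%) rose and 855 (8.98%) fell. That split was 661 up and 274 down without background correction and 681 up and 285 down in the authors' normalized table. With TAN replicate 4 alone 451 genes were called (4.74%), 205 of them higher (2.15%) and 246 lower (2.58%), and the median change was -0.02. At 2-fold or more that fit called 286 genes (3%), 125 up (1.31%) and 161 down (1.69%). The majority at 2-fold or more was thus upward with all TAN arrays and downward with TAN replicate 4 alone. A list of genes whose shares of rises and falls lie near these shares of all genes does not stand apart from them.

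Of the 4380 calls made with all TAN arrays, 851 (19.4%) had the opposite sign with TAN replicate 4 alone. TAN replicate 4 lay nearer to the SM16 mean than to the mean of TAN replicates 1 and 2 for 3118 of the called genes (71.2%), against 6999 of all genes tested (73.5%). Detection split in the same way. There were 594 genes detected on all SM16 arrays and on TAN replicate 4 but on neither other TAN array, and 98 detected on all SM16 arrays and on TAN replicates 1 and 2 but not on replicate 4. These counts were chosen after the values were seen.

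Both fits called 337 genes in the same direction (3.54% of those tested), 143 higher (1.5%) and 194 lower (2.04%). Of these, 273 (2.87%) met further conditions: SM16 and TAN arrays did not overlap, each array of the brighter group detected the gene, and all of its probes lay on the same side of 0 in both fits. Of the 273, 114 rose (1.2%) and 159 fell (1.67%). They are called the concordant genes below, and 55 of them had more than 1 probe. Genes with a clone or locus name rather than a gene name were also left out of this set, but not out of the genes tested. For a gene chosen for no overlap, the direction with TAN replicate 4 is fixed by that choice. The separation of SM16 and TAN arrays described below for concordant genes is likewise required by the rule. For comparison, 2251 genes of all tested (23.6%) had no overlap between the groups, 708 (7.43%) with SM16 higher and 1543 (16.2%) with SM16 lower.

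**Figure D1:**
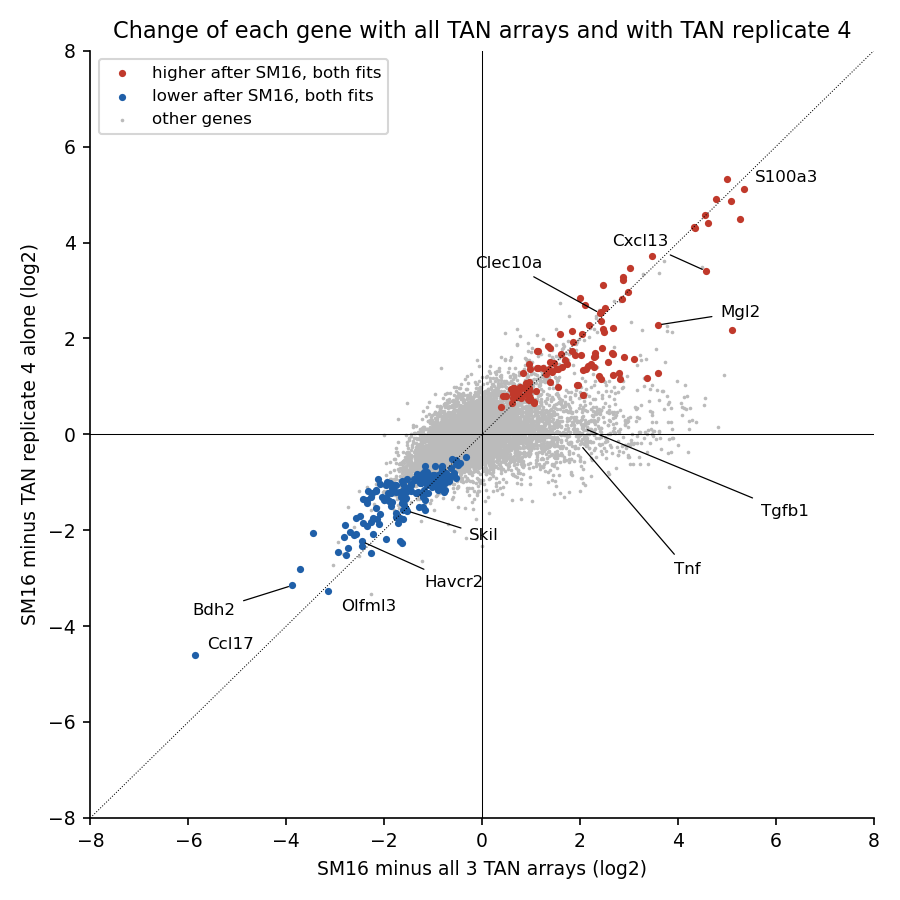
Change of each of the 9523 genes (log2) with all 3 TAN arrays on the horizontal axis and with TAN replicate 4 alone on the vertical axis; the dotted line marks equal changes. The 114 concordant genes that rose are red and the 159 that fell are blue, while Tnf and Tgfb1 lie in a band of grey points that are raised on the horizontal axis and near 0 on the vertical one.

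Ccl17, a chemokine that attracts regulatory T cells through the receptor Ccr4, had the largest concordant fall. Its level was 4.60, 4.83, 4.56, 4.66 and 4.49 on the SM16 arrays, none of which detected it, and 11.19, 11.06 and 9.23 on TAN replicates 1, 2 and 4. The groups did not overlap, and the SM16 level was that of naive marrow neutrophils, in which the gene was also undetected (4.54 ± 0.22, SD, n = 7). Ccl17 was at least 35.05-fold lower after SM16 with all TAN arrays, at least 14.6-fold lower with TAN replicate 4 alone and at least 54.3-fold lower without that array (log2 change -5.87, SE 0.32, adjusted p = 7.53e-10; -4.61, SE 0.29, adjusted p = 3.43e-08 with TAN replicate 4 alone). Cxcl13, a chemokine that attracts B cells, moved the other way. It stood at 13.51, 13.63, 13.53, 13.73 and 13.39 on the SM16 arrays, against 8.18, 8.61 and 10.15 on TAN replicates 1, 2 and 4. All 5 SM16 arrays lay within a narrow band far above every TAN array, and the change was 4.58 (SE 0.37, adjusted p = 9.6e-08; 3.40, SE 0.42, adjusted p = 0.000132 with TAN replicate 4 alone). In naive neutrophils Cxcl13 was undetected (4.49 ± 0.07, SD, n = 7). The SD on the TAN arrays was 1.09 for Ccl17 and 1.04 for Cxcl13. When limma fitted only the SM16 and TAN arrays, the adjusted p was 0.000506 for Ccl17 and 0.000739 for Cxcl13.

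Of the 24 chemokine ligands tested, 11 rose and 5 fell with all TAN arrays, and 2 rose and 2 fell with TAN replicate 4 alone. With all TAN arrays 45.8% of the list rose and 20.8% fell, against 17.8% and 28.2% of all genes. The list's median change was 0.30 and 0.05, against -0.21 and -0.02 over all genes. The 4 that were concordant were Ccl17, Cxcl13, Cxcl3 and Ccl6. Cxcl3, a neutrophil-attracting ligand of Cxcr2, had 6.26, 5.38, 6.88, 5.65 and 5.81 on the SM16 arrays, against 8.97, 8.66 and 7.42 on the TAN arrays, a fall of 2.36 (adjusted p = 1.83e-05) and of 1.43 with TAN replicate 4 alone (adjusted p = 0.0271). Ccl6, a monocyte-attracting chemokine added here after its value was seen, was at 12.49 to 13.12 on the SM16 arrays, at 7.85 and 8.26 on TAN replicates 1 and 2, and at 11.52 on replicate 4. It rose by 3.60 with all TAN arrays and by 1.29 with TAN replicate 4 alone (adjusted p = 0.0137).

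The promoters of Ccl17, Cxcl13 and Mgl2, genes with large concordant changes, are printed to show where short Smad and Stat6 motifs lie near their starts. They come from RefSeq on mouse build GRCm38.p6 and cover 300 bases around a start of each gene, plus strand; the promoters of Skil, Itgae and Clec10a are named only. Capitals mark CAGAC, the Smad box, on either strand (GTCTG on the other) and TTC and GAA with 4 bases between them, a Stat6-type site.
Ccl17, chr8:94810203-94810502: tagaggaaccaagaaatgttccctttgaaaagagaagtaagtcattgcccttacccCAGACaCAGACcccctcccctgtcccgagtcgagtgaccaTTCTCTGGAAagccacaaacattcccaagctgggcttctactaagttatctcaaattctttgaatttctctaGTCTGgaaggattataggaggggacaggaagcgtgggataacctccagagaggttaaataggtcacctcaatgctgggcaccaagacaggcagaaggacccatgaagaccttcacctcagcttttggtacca
Cxcl13, chr5:95956689-95956988: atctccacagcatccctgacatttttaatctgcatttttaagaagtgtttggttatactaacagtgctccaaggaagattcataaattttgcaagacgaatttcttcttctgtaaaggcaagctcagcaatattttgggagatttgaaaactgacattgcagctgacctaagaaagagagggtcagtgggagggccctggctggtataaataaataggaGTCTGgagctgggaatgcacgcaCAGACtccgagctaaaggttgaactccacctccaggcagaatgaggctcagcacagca
Mgl2, chr11:70130107-70130406: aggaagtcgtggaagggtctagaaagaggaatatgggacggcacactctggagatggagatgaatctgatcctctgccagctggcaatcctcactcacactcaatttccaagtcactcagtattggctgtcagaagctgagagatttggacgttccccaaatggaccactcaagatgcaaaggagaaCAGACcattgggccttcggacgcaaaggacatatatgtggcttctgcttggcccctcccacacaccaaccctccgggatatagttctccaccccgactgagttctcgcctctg

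The window of Ccl17 held 3 Smad boxes and 1 Stat6-type site, that of Cxcl13 held 2 Smad boxes and that of Mgl2 held 1. The motifs were searched in all promoter windows by their letters alone. CAGAC occurred in 48.4% of the 122 concordant genes that fell and had a window, in 42.0% of the 81 that rose outside the hair follicle list, and in 48.1% of the 7769 tested genes with a window. The Stat6-type site occurred in 4.92%, 11.1% and 5.48% of the same sets. The AP-1 site TGANTCA occurred in 8.2%, 7.41% and 5.84%, and the palindromic Smad element GTCTAGAC in 0.82%, 0% and 0.21%. Over all 27025 promoter windows the shares were 49.7% for CAGAC, 6.99% for the Stat6-type site, 7.93% for TGANTCA and 0.21% for GTCTAGAC. A match is a description of the letters and not a binding site, and no test was made.

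Among the TGF-beta ligands, receptors and Smads, Tgfbr1, which encodes Alk5 itself, was the 1 concordant gene of 21 tested. Its level was 10.69, 10.76, 10.23, 10.56 and 10.06 on the SM16 arrays, against 11.59, 11.67 and 11.75 on the TAN arrays. All SM16 arrays were lower than all TAN arrays, and both probes of the gene fell in both fits, as the rule for concordant genes requires. Tgfbr1 fell by 1.21 (SE 0.18, adjusted p = 6.54e-05) and had a change of -1.29 with TAN replicate 4 alone (SE 0.27, adjusted p = 0.0106). The list as a whole had 4 genes higher and 6 lower with all TAN arrays, and 0 and 1 with TAN replicate 4 alone; its medians, -0.20 and -0.02, were close to those of all genes.

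The ligand Tgfb1 gave a different picture. It was at 11.47, 11.60, 11.12, 11.60 and 11.81 on the SM16 arrays, and at 8.38, 8.58 and 11.39 on TAN replicates 1, 2 and 4. TAN replicate 4 lay inside the SM16 range and the other TAN arrays far below it. The change was 2.07 with all TAN arrays (adjusted p = 0.00103) and 0.13 with TAN replicate 4 alone (adjusted p = 0.873). Tgfbr2, the type II receptor, changed by 1.08 (adjusted p = 0.000148) with all TAN arrays and by 0.54 (adjusted p = 0.142) with TAN replicate 4 alone, and its second probe changed by 1.91 and by -0.69.

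Genes that respond to TGF-beta were counted next. Of 24 tested, 0 rose and 9 fell with all TAN arrays, and 1 rose and 5 fell with TAN replicate 4 alone; at an unadjusted p under 0.05 with limma, 0 rose and 12 fell, and 1 rose and 8 fell. The median change of the list was -0.59 and -0.31, against -0.21 and -0.02 over all genes. With all TAN arrays 37.5% of the list was called lower, against 28.2% of all genes. At an unadjusted p under 0.05 with limma, 5114 of all 9523 genes passed in either direction with all TAN arrays. Skil, a feedback inhibitor of Smads, was at 9.33, 9.28, 9.59, 9.16 and 8.40 on the SM16 arrays and at 10.70, 10.64 and 10.75 on the TAN arrays. No SM16 array reached the TAN level, where the 3 arrays nearly coincided, and Skil fell by 1.54 (SE 0.28, adjusted p = 0.000347; 1.59, SE 0.42, adjusted p = 0.0362 with TAN replicate 4 alone). Itgae, the CD103 integrin chain that TGF-beta induces in lymphocytes, had 5.97, 5.87, 6.33, 6.5 and 5.88 on the SM16 arrays, against 9.34, 9.37 and 8.01 on the TAN arrays. It fell by 2.80 (adjusted p = 4.09e-06) and by 1.90. All of its 5 probes had a negative change in both fits, as the rule for concordant genes requires. The smallest of these changes were -0.02 and -0.16 with all TAN arrays, and -0.45 and -0.46 with TAN replicate 4 alone.

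Runx1, a transcription factor of blood cells, fell by 1.93 and 1.36 against all TAN arrays and against TAN replicate 4 alone (adjusted p = 3.81e-05 and 0.041). Vegfa, the main angiogenic growth factor, was at 8.74 to 9.14 on the SM16 arrays and at 10.55, 10.80 and 10.16 on the TAN arrays, and it fell by 1.5 (adjusted p = 1.82e-05) and by 1.15 (adjusted p = 0.0166). Id1, an inhibitor of helix-loop-helix factors and the remaining concordant gene of the list, was named after its value was seen. It had 8.69 to 9.42 on the SM16 arrays and 9.87 to 10.08 on the TAN arrays, with changes of -0.90 and -1.02. The gene that rose with TAN replicate 4 alone was Gpnmb, a lysosomal glycoprotein, likewise named after its value was seen (0.57, not called, and 1.55, called). Tgfbi, an extracellular matrix protein named for its induction by TGF-beta, was not called (-0.29 and -0.31), but it was called after median scaling (-0.62, adjusted p = 0.00395) and with array weights (-0.28, adjusted p = 0.00393). Its second probe stood at 12.21 to 12.92 on the SM16 arrays, at 8.60 and 8.48 on TAN replicates 1 and 2, and at 12.82 on TAN replicate 4. The 2 probes of Tgfbi therefore had changes of opposite sign with all TAN arrays and of the same sign with TAN replicate 4. Smad7, a feedback inhibitor induced by TGF-beta, had no probe among those tested.

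The other large concordant falls included immune regulators, metabolic enzymes and secreted matrix proteins. Havcr2, the inhibitory receptor Tim-3, had 8.24, 8.09, 7.33, 7.47 and 7.08 on the SM16 arrays, against 10.21, 10.22 and 9.87 on the TAN arrays. The groups were more than 1 log2 unit apart, and Havcr2 fell by 2.46 (SE 0.25, adjusted p = 2.41e-06; 2.23, SE 0.38, adjusted p = 0.00309 with TAN replicate 4 alone). Nt5e, the ecto-enzyme CD73 that makes adenosine from AMP, had 7.35, 6.97, 7.11, 6.87 and 6.30 on the SM16 arrays and 9.16, 9.03 and 9.39 on the TAN arrays. Its change was larger with TAN replicate 4 alone (-2.47, adjusted p = 0.00205) than with all TAN arrays (-2.27, adjusted p = 6.69e-06), and it lay above the TAN level in naive neutrophils (10.95 ± 0.32, SD, n = 7). Of 18 costimulatory and checkpoint genes, 1 rose and 6 fell with all TAN arrays, 0 rose and 3 fell with TAN replicate 4 alone, and Havcr2 and Cd276, the checkpoint ligand B7-H3, were the concordant genes. Cd276 fell by 1.03 and 1.09. The share of the costimulatory and checkpoint genes that fell with all TAN arrays was 33.3%, against 28.2% of all genes. Their median change was -0.18 and -0.16, against -0.21 and -0.02 over all genes.

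Ifnb1, the type I interferon beta, was detected on 2 of 5 SM16 arrays and all 3 TAN arrays. Its level was 5.09, 5.94, 5.18, 6.08 and 4.67 on the SM16 arrays, against 8.23, 8.32 and 7.50 on the TAN arrays, and it fell by 2.63 (adjusted p = 1.22e-06) and by 2.11 (adjusted p = 0.00309). Of 33 interferon-stimulated genes, 5 rose and 9 fell with all TAN arrays (27.3% fell, near the share of all genes) and 0 rose and 1 fell with TAN replicate 4 alone, with medians of -0.16 and -0.44. Over all genes the medians were -0.21 and -0.02. The concordant interferon-stimulated gene was Trim30a, an interferon-induced regulator of inflammatory signalling, with changes of -1.55 and -1.56. Tnfsf13b, the B cell survival factor BAFF, named after its value was seen, was the other concordant cytokine and fell by 1.17 and 0.94. Of the cytokines and growth factors 21.4% rose and 46.4% fell with all TAN arrays, against 17.8% and 28.2% of all genes. Over the 28 cytokines and growth factors, 6 rose and 13 fell with all TAN arrays and 0 rose and 3 fell with TAN replicate 4 alone (medians -0.35 and -0.35).

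Ccr6, the receptor of Ccl20, was not detected on any SM16 array and was detected on all TAN arrays (4.35 to 4.73 against 7.56, 7.83 and 6.66). It was at least 3.97-fold and 2.46-fold lower, with changes of -2.83 (adjusted p = 2.41e-05) and -2.14 (adjusted p = 0.0246). It was the 1 concordant member of the 27 cytokine and chemokine receptors, of which 7 rose and 7 fell with all TAN arrays and 0 rose and 3 fell with TAN replicate 4 alone. The median of that list was 0.34 with all TAN arrays, -0.04 with median scaling of the arrays and -0.35 with TAN replicate 4 alone. Among its genes 25.9% rose and 25.9% fell with all TAN arrays, against 17.8% and 28.2% of all genes. Cxcr4, the receptor that retains neutrophils in marrow, was not called with all TAN arrays (-0.43, adjusted p = 0.0939), was called after median scaling (-0.76, adjusted p = 0.00466) and with array weights (-0.23, adjusted p = 0.0327), and fell by 0.97 with TAN replicate 4 alone (adjusted p = 0.0395), where it stood at 12.98 against 12.08 and 12.25 on TAN replicates 1 and 2.

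Ptgs2, the inducible cyclooxygenase, had 7.95, 8.12, 8.51, 8.30 and 8.32 on the SM16 arrays and 9.80, 9.98 and 9.99 on the TAN arrays. Both groups were tight and separate, and Ptgs2 fell by 1.68 (SE 0.24, adjusted p = 4.02e-05; 1.76, SE 0.35, adjusted p = 0.00905 with TAN replicate 4 alone). Ptger2, a receptor of prostaglandin E2, fell by 1.86 and 1.49. Of 15 eicosanoid genes, 2 rose and 5 fell with all TAN arrays, and 0 and 2 with TAN replicate 4 alone. Of 20 NF-kB subunits and targets, 2 rose and 11 fell, and 0 and 4, with medians of -0.46 and -0.43. Birc3, an inhibitor of cell death, was the other concordant one and fell by 1.68 and 1.20. With all TAN arrays 33.3% of the eicosanoid genes and 55% of the NF-kB list fell, against 28.2% of all genes. The medians over all genes were -0.21 and -0.02.

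Of 27 immediate early genes, which respond to signalling within minutes, 2 rose and 8 fell with all TAN arrays (29.6% fell, against 28.2% of all genes), and 0 rose and 3 fell with TAN replicate 4 alone (medians -0.24 and -0.27). Over all genes the medians were -0.21 and -0.02. The concordant genes of the list were Dusp4, a phosphatase of MAP kinases (-2.11 and -1.87), Ier2 (-2.23 and -1.76) and Klf2, a factor of quiescence in leukocytes (-0.98 and -1.08). Klf2 had 13.19 to 13.56 on the SM16 arrays and 14.27 to 14.46 on the TAN arrays, without overlap.

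Bdh2, a cytosolic dehydrogenase with a role in siderophore synthesis, had 4.82, 5.15, 5.45, 5.46 and 5.57 on the SM16 arrays, against 9.60, 9.45 and 8.44 on the TAN arrays, and fell by 3.87 (SE 0.23, adjusted p = 1.38e-09) and by 3.15 (adjusted p = 2.03e-06). Slc9b2, a sodium-proton exchanger and the neighbour of Bdh2 on chromosome 3 in GRCm38.p6, was undetected on all SM16 arrays (4.40 to 4.62, against 8.67, 8.68 and 7.32 on the TAN arrays) and at least 7.27-fold and 3.89-fold lower. Ass1, the enzyme that forms argininosuccinate and so rebuilds arginine, had 7.76, 7.18, 8.67, 6.86 and 7.17 on the SM16 arrays and 10.66, 10.77 and 9.98 on the TAN arrays. It fell by 2.94 (adjusted p = 3.72e-05) and by 2.45 (adjusted p = 0.0264), and was the 1 concordant gene of 12 arginine, nitric oxide and polyamine enzymes, of which 6 rose and 2 fell with all TAN arrays, and 0 rose and 1 fell with TAN replicate 4 alone.

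Olfml3, a secreted matrix protein, was detected on 1 of 5 SM16 arrays and on all TAN arrays, with changes of -3.14 and -3.26. Its level was 4.82 to 5.88 on the SM16 arrays and 8.26 to 8.52 on the TAN arrays. Htra3, a secreted serine protease that inhibits TGF-beta family signalling, fell by 2.57 and 2.08, with a wide spread on the SM16 arrays (6.13 to 8.21). Its second probe changed by only -0.02 and -0.89. That probe was at 4.49 to 5.51 on the SM16 arrays and at 4.83, 4.53 and 5.99 on TAN replicates 1, 2 and 4. Ctsk, a collagen-cleaving cathepsin, had 10.03, 10.11, 10.05, 10.62 and 9.20 on the SM16 arrays and 12.53, 12.52 and 12.33 on the TAN arrays, a fall of 2.46 (adjusted p = 6.5e-06) and of 2.33 (adjusted p = 0.00528). Hic1, a transcriptional repressor, fell by 2.73 and 2.36. Asb2, a ubiquitin ligase adaptor of blood cells, was at least 6.70-fold and 2.56-fold lower, and at least 10.8-fold lower without TAN replicate 4. Gstt1, a glutathione transferase, was at least 3.61-fold and 3.25-fold lower. Neither gene was detected on any SM16 array. H3c7, a replication-dependent histone gene, fell by 2.78 and 2.51. In all, 22 of the 159 concordant genes that fell were undetected on every SM16 array.

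**Figure D2:**
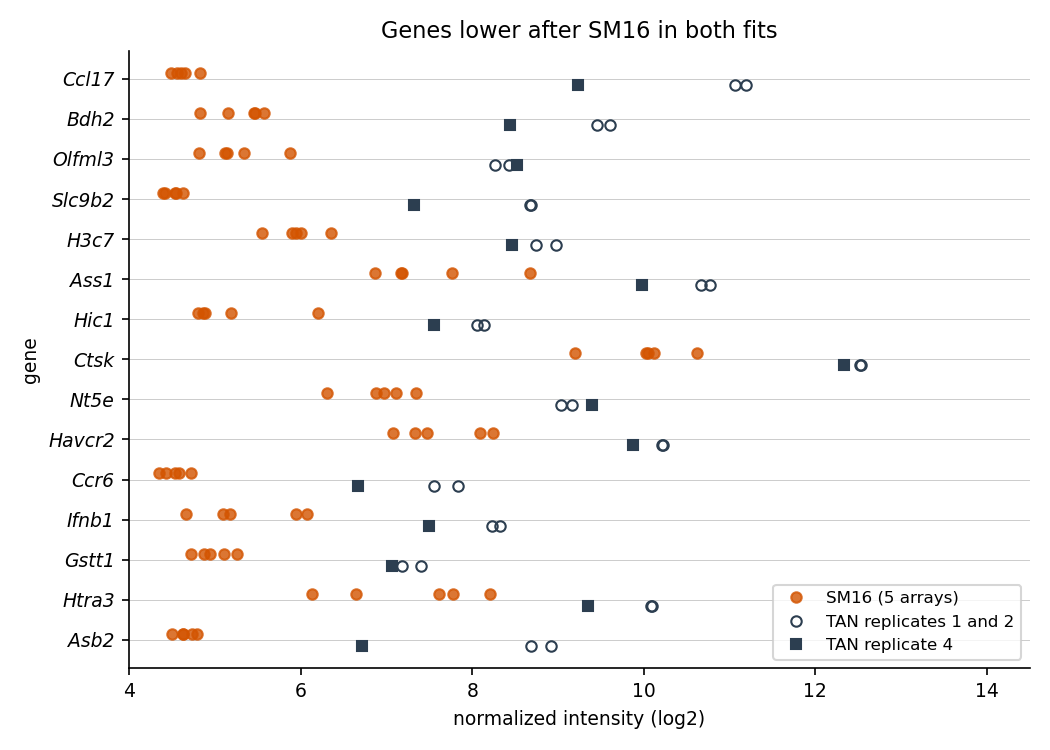
Normalized log2 intensity of the 15 concordant genes with the largest falls, by array: orange points are the 5 SM16 arrays, open circles TAN replicates 1 and 2, and squares TAN replicate 4. Every SM16 point lies left of every TAN point in each row, as the rule for concordant genes requires, and Ccl17 has the widest gap.

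Of 15 genes of class II presentation, 3 rose and 4 fell with all TAN arrays, shares of 20% and 26.7% that were near those of all genes, and 1 rose and 4 fell with TAN replicate 4 alone, with medians of -0.39 and -0.53. Over all genes the medians were -0.21 and -0.02, so the list lay further below all genes with TAN replicate 4 alone. Ciita, the master activator of class II genes, had 6.59 to 7.71 on the SM16 arrays and 9.18, 8.91 and 8.54 on the TAN arrays. It fell by 1.65 (adjusted p = 9.33e-05) and by 1.31 (adjusted p = 0.0435). Cd1d1, which presents lipids, fell by 0.79 and 0.84, and was not called with median scaling (-0.48, adjusted p = 0.0803). Ctsl, a cathepsin that processes the invariant chain, had 7.86 to 8.52 on the SM16 arrays, against 4.79, 5.12 and 6.55 on the TAN arrays, and rose by 2.58 and 1.51.

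In class I presentation TAN replicate 4 lay at the level of the SM16 arrays and TAN replicates 1 and 2 lay lower. Of 20 genes, 12 rose and 3 fell with all TAN arrays, and 0 rose and 0 fell with TAN replicate 4 alone (0 and 2 at an unadjusted p under 0.05 with limma); the medians were 1.08 and 0.01. With all TAN arrays 60% of the list rose and 15% fell, against 17.8% and 28.2% of all genes. The list's median level was 10.64 to 11.13 on the SM16 arrays, 9.17 and 9.42 on TAN replicates 1 and 2 and 11.17 on TAN replicate 4. H2-K1, a classical class I heavy chain named after its value was seen, stood at 13.53 to 13.90 on the SM16 arrays, at 8.93 and 8.98 on TAN replicates 1 and 2, and at 13.68 on TAN replicate 4. Its change was 3.21 (adjusted p = 0.000953) and 0.06 (adjusted p = 0.951).

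The inflammatory genes often used to describe neutrophils after TGF-beta blockade followed the same split. Tnf had 13.55, 13.68, 13.71, 13.49 and 14.18 on the SM16 arrays, and 10.52, 10.70 and 13.93 on TAN replicates 1, 2 and 4. It rose by 2.0 with all TAN arrays (adjusted p = 0.00662) and had a change of -0.21 with TAN replicate 4 alone (adjusted p = 0.89). Icam1, an adhesion molecule of leukocyte arrest, had 12.56 to 13.38 on the SM16 arrays, 10.06 and 10.34 on TAN replicates 1 and 2, and 13.08 on TAN replicate 4, with changes of 1.75 (adjusted p = 0.00304) and -0.17 (adjusted p = 0.81). For both genes TAN replicate 4 lay inside the range of the SM16 arrays, and both lost their call when only the SM16 and TAN arrays were fitted (adjusted p = 0.0518 for Tnf and 0.0543 for Icam1). Tnf also lost it without TAN replicate 1 (1.40, adjusted p = 0.0816) and without TAN replicate 2 (1.49, adjusted p = 0.0713).

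Ccl2, a monocyte chemoattractant, changed by 2.15 (adjusted p = 0.00277) with all TAN arrays and by 0.49 (adjusted p = 0.741) with TAN replicate 4 alone. Ccl3, a chemokine of inflammation, was at 15.88 to 15.94 on the SM16 arrays and at 15.87 on TAN replicate 4, near the top of the intensity scale, and at 13.92 and 13.67 on TAN replicates 1 and 2, with changes of 1.42 (adjusted p = 0.0295) and 0.04 (adjusted p = 0.986). Ccl5, a T cell-attracting chemokine, was not called in either fit (-0.76, adjusted p = 0.0924, and -0.02, adjusted p = 0.99), but it was lower with array weights (-1.28, adjusted p = 1.58e-05) and without TAN replicate 4 (-1.13, adjusted p = 0.0132). Arg1, the arginase of alternatively activated myeloid cells, was 0.97 higher (adjusted p = 0.0163) with all TAN arrays and had a change of -0.17 (adjusted p = 0.859) with TAN replicate 4 alone. Nos2, the inducible nitric oxide synthase, changed by 1.21 (adjusted p = 0.00772) and 0.67 (adjusted p = 0.496), and Mmp9, a gelatinase of neutrophil granules, by -0.71 (adjusted p = 0.000579) and -0.52 (adjusted p = 0.141). In the fit of the SM16 and TAN arrays only, Arg1 (adjusted p = 0.09) and Nos2 (adjusted p = 0.0684) were not called. Without TAN replicate 1, Arg1 (0.64, adjusted p = 0.161), Nos2 (0.84, adjusted p = 0.0924) and Ccl3 (1.14, adjusted p = 0.16) were not called, and without TAN replicate 2, Arg1 (0.73, adjusted p = 0.126) and Ccl3 (1.01, adjusted p = 0.191) were not. After median scaling Arg1 (0.65, adjusted p = 0.0882) and Ccl3 (1.08, adjusted p = 0.065) were not called either.

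**Figure D3:**
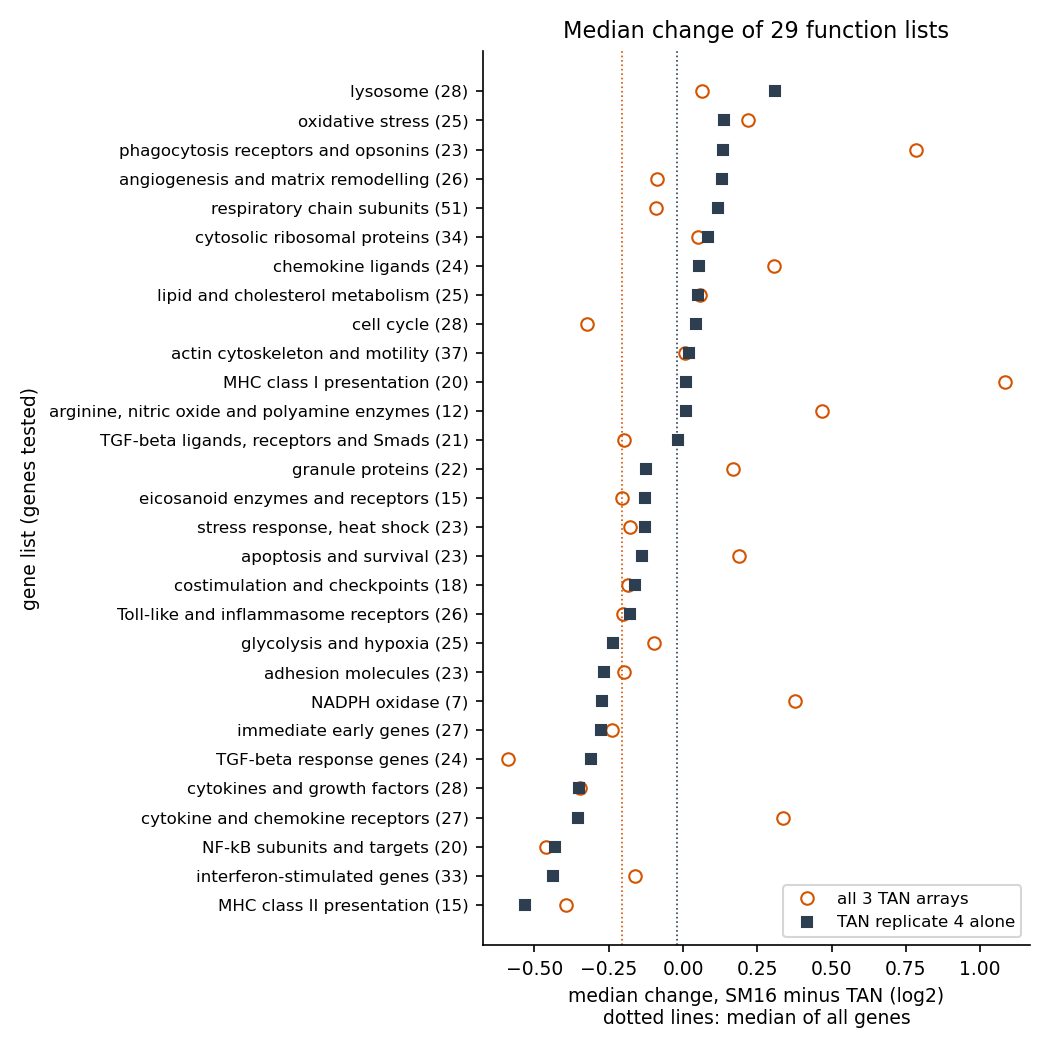
Median change (log2, SM16 minus TAN) of the 29 function lists, with the number of genes tested in brackets: open circles use all 3 TAN arrays and squares TAN replicate 4 alone, and dotted lines mark the medians of all genes, -0.21 and -0.02. Class I presentation lies at 1.08 and 0.01, and TGF-beta response genes at -0.59 and -0.31.

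The concordant rises included lectins and scavenger receptors of alternatively activated macrophages. Clec10a, a galactose-type lectin, had 12.63, 12.63, 12.17, 12.80 and 12.58 on the SM16 arrays, against 10.10, 10.30 and 10.04 on the TAN arrays. The 3 TAN arrays lay close together and far below the SM16 arrays, and Clec10a rose by 2.41 (SE 0.20, adjusted p = 2.01e-07; 2.52, SE 0.30, adjusted p = 0.000103 with TAN replicate 4 alone). Mgl2, its close paralog, had 11.34, 11.23, 10.81, 11.44 and 11.67 on the SM16 arrays, against 7.05, 7.07 and 9.02 on the TAN arrays, a rise of 3.59 (adjusted p = 1.86e-06) and of 2.28 (adjusted p = 0.00215). Probes of these near-identical neighbours could share signal.

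Cd163, the haemoglobin scavenger receptor, had 11.98, 12.26, 11.89, 12.44 and 11.70 on the SM16 arrays and 9.80, 10.27 and 10.41 on the TAN arrays, and rose by 1.89 (adjusted p = 9.79e-06) and by 1.65 (adjusted p = 0.00769). Mrc1, the mannose receptor, had 14.10 to 14.93 on the SM16 arrays and 11.42, 11.83 and 13.39 on the TAN arrays, with rises of 2.39 (adjusted p = 3.14e-05) and 1.22 (adjusted p = 0.0379). Each SM16 array exceeded each TAN array for both receptors, as the rule for concordant genes requires. Vcam1, an adhesion molecule, had 12.50 to 13.05 on the SM16 arrays and 9.32, 9.77 and 11.07 on the TAN arrays, and rose by 2.68 and 1.66. C6, a component of the complement pore, had 11.22, 11.68, 11.30, 12.02 and 11.61 on the SM16 arrays and 9.06, 8.86 and 9.37 on the TAN arrays, and rose by 2.47 (adjusted p = 5.79e-08) and by 2.20 (adjusted p = 0.000103).

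Most macrophage markers rose in the fit with all TAN arrays and few with TAN replicate 4 alone. Of 16 macrophage and monocyte markers, 11 rose and 0 fell with all TAN arrays, and 2 rose and 0 fell with TAN replicate 4 alone, namely Cd163 and Mrc1. With all TAN arrays 68.8% of the list rose, against 17.8% of all genes. The list's median change was 1.89 and 0.60. The summed intensity of the list was 142356 to 284480 on the SM16 arrays, and 39839, 50032 and 139675 on TAN replicates 1, 2 and 4, so that TAN replicate 4 came close to the lowest SM16 array. All 16 markers were detected on every SM16 array and 15 on every TAN array, and the part of macrophage content in the rises of Clec10a, Mgl2, Cd163, Mrc1 and Vcam1 was not tested. In bulk samples, fewer cells of a type and less RNA per cell cannot be told apart. Of 15 dendritic cell markers, 2 rose and 3 fell with all TAN arrays, and 2 and 2 with TAN replicate 4 alone. The rises were Clec10a and Mgl2, and Itgae and Itgax, the integrin chain CD11c, fell in both fits (Itgax by 1.13 and 1.0).

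Lysosomal genes were the function list with the highest median with TAN replicate 4 alone. Of 28 genes, 10 rose and 3 fell with all TAN arrays, and 4 rose and 1 fell with TAN replicate 4 alone. The median change was 0.06 with all TAN arrays, -0.19 after median scaling and 0.31 with TAN replicate 4 alone. The concordant ones were Gla, an alpha-galactosidase undetected on all TAN arrays and at least 2.50-fold and 3.05-fold higher (2.31 and 1.63), Ctsl, Lamp1, the main lysosomal membrane protein (0.76 and 0.83), and Ctsk, which fell. The second bound of Gla is larger through the lower detection limit of TAN replicate 4, although its second change is smaller. Lamp1 had 13.45 to 13.90 on the SM16 arrays and 12.85 to 12.98 on the TAN arrays. Of 25 oxidative stress genes, 9 rose and 4 fell, and 2 and 1, among them Gpx3, an extracellular glutathione peroxidase (1.83 and 1.73), and Gclm, a subunit of glutathione synthesis, which fell by 1.12 and 1.07. Sult1a1, a phenol sulfotransferase, rose by 2.67 and 2.22.

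**Figure D4:**
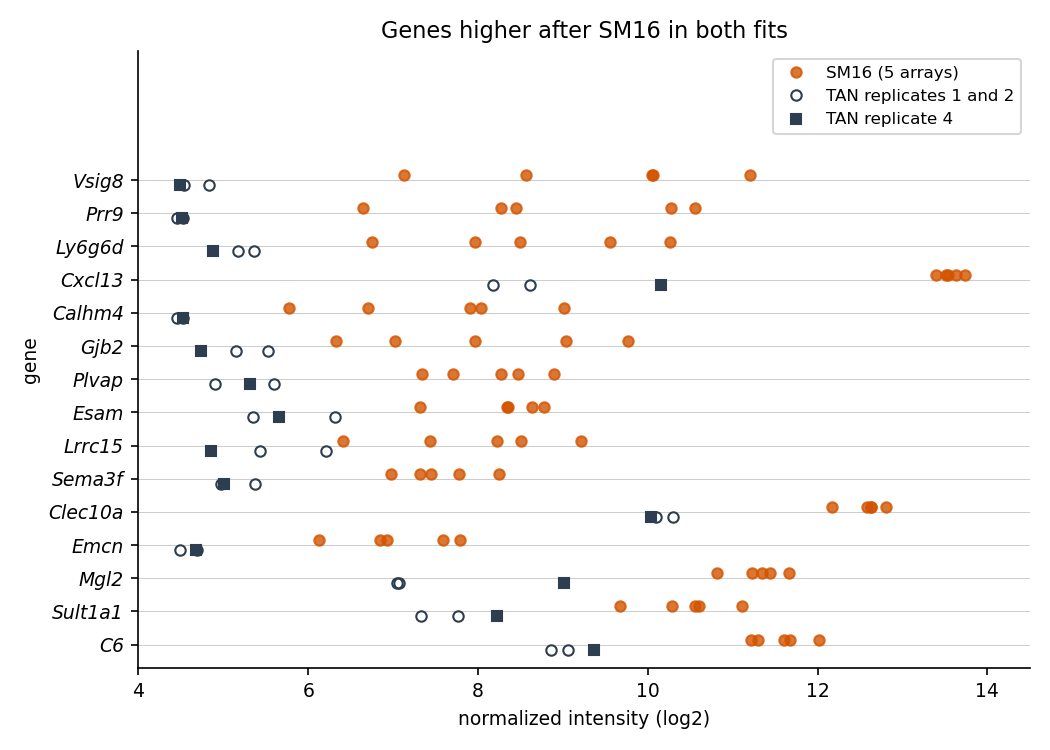
Normalized log2 intensity of the 15 concordant genes outside the hair follicle list with the largest rises, by array: orange points are the 5 SM16 arrays, open circles TAN replicates 1 and 2, and squares TAN replicate 4. Cxcl13, Clec10a, Mgl2 and C6 form tight SM16 groups, while Vsig8, Prr9, Ly6g6d, Calhm4, Gjb2 and Lrrc15 spread over more than 2 log2 units.

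Endothelial markers were higher after SM16. Of 14 tested, 9 rose and 0 fell with all TAN arrays, and 6 rose and 0 fell with TAN replicate 4 alone. The median change was 1.51 and 1.06, and the summed intensity was 2367 to 4294 on the SM16 arrays, against 1351 to 1407 on the TAN arrays. With all TAN arrays 64.3% of the list rose, against 17.8% of all genes. Of the 14 markers, 7 were undetected on every TAN array and 0 were undetected on every SM16 array. Plvap, a protein of endothelial diaphragms, had 8.28, 7.34, 7.71, 8.48 and 8.89 on the SM16 arrays, against 4.90, 5.60 and 5.32 on the TAN arrays, and was at least 4.85-fold and 5.91-fold higher (2.86, adjusted p = 3.09e-05; 2.82, adjusted p = 0.00966). Esam, an endothelial adhesion molecule, rose by 2.52 and 2.64, and Emcn, an endothelial sialomucin undetected on all TAN arrays, by 2.44 and 2.37 (at least 2.29-fold and 2.79-fold). In naive neutrophils Plvap stood at 7.27 ± 0.71 and Esam at 9.17 ± 0.63 (SD, n = 7), both above every TAN array. At an unadjusted p under 0.05 with limma, 0 genes of the macrophage, endothelial and hair follicle lists fell in either fit. Sema3f, a secreted guidance protein, was undetected on all TAN arrays and at least 3.23-fold and 3.93-fold higher.

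Genes of the hair follicle held the 3 largest concordant rises, ranked by the smaller of both changes. Of 27 tested, 20 rose and 0 fell with all TAN arrays, and 12 rose and 0 fell with TAN replicate 4 alone, with median changes of 1.65 and 1.98. With all TAN arrays 74.1% of the list rose, against 17.8% of all genes. S100a3, which binds calcium and zinc in hair cuticle cells, had 12.82, 11.91, 13.20, 9.49 and 10.96 on the SM16 arrays, against 5.93 to 6.55 on the TAN arrays. The groups did not overlap, but the SM16 arrays covered nearly 4 log2 units, and S100a3 rose by 5.35 (SE 0.55, adjusted p = 2.41e-06) and by 5.12 (SE 0.84, adjusted p = 0.00253). Krt31, a hair keratin, had 11.27, 10.10, 11.20, 7.86 and 9.51 on the SM16 arrays, against 4.81, 5.45 and 4.66 on the TAN arrays, none of which detected it, and was at least 17.5-fold and 21.3-fold higher. Krt73, a keratin of the inner root sheath, had 11.41, 10.12, 12.34, 7.85 and 9.28 on the SM16 arrays, against 5.06, 4.94 and 5.32 on the TAN arrays, and was at least 20.2-fold and 24.7-fold higher. Krt71, another keratin of that sheath, had 11.33, 10.68, 12.90, 6.72 and 8.51 on the SM16 arrays, against 4.33, 4.39 and 5.53 on the TAN arrays, and was at least 18.0-fold and 21.9-fold higher. Psors1c2, a skin gene of the psoriasis locus in humans, was at least 8.97-fold and 10.9-fold higher. For Krt31, Krt73, Krt71 and Psors1c2 the second bound is larger only through the lower detection limit of TAN replicate 4. It does not show a larger change. The changes were 5.28 and 4.49 for Krt71 and 5.09 and 4.88 for Krt73. They were 5.01 and 5.33 for Krt31 and 4.54 and 4.57 for Psors1c2. The bounds also rest in part on single arrays. Without SM16 replicate 4 they were 30.4-fold for Krt73, 31.9-fold for Krt71 and 13.9-fold for Psors1c2, and without SM16 replicate 3 that of Krt71 was 10.9-fold.

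The SM16 arrays kept a common order in these genes. The list's median level was 9.22, 7.66, 9.42, 6.18 and 7.44 on SM16 replicates 1 to 5, and 5.00, 5.05 and 4.93 on the TAN arrays. Of the 114 concordant genes that rose, 17 had an SD above 1 among the SM16 arrays, a limit chosen after the values were seen. All 17 were lowest on SM16 replicate 4 and 13 were highest on SM16 replicate 3. The hair follicle list held 10 of them, and the other 7 included Vsig8 (at least 11.7-fold and 14.2-fold higher), Prr9 (at least 7.88-fold and 9.6-fold), Ly6g6d (at least 6.70-fold and 8.17-fold), Calhm4, Lrrc15 and Gjb2, a gap junction protein of epithelia and other tissues (at least 4.48-fold and 5.45-fold). Of the 159 concordant genes that fell, 0 had such a spread, and 97 of the 104 that rose outside the hair follicle list did not either. Clec10a, Mgl2, Cxcl13 and C6 showed no such order, and SM16 replicate 4 was their highest or second highest array.

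**Figure D5:**
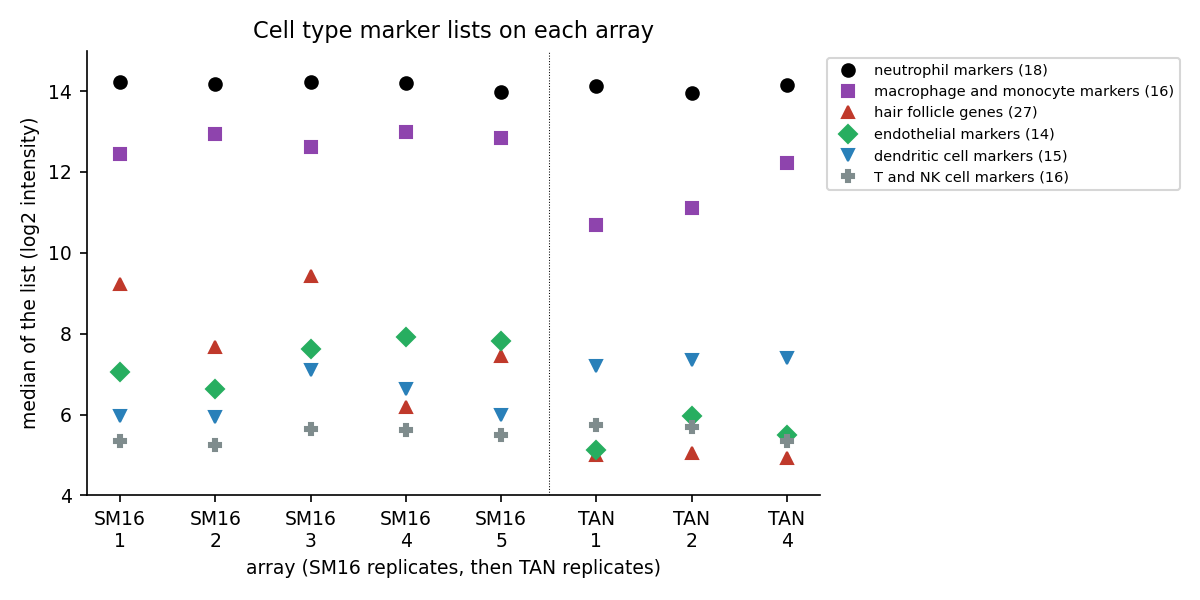
Median log2 intensity of 6 marker lists on each array, SM16 replicates 1 to 5 and then TAN replicates 1, 2 and 4, with the number of genes tested in brackets. Neutrophil markers stay near 14 on all arrays, hair follicle genes range between 6.18 and 9.42 on SM16 arrays and between 4.93 and 5.05 on TAN arrays, and macrophage markers are lowest on TAN replicates 1 and 2.

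Markers of further cell types were counted in the same way. Among all genes 17.8% rose and 28.2% fell with all TAN arrays. The summed intensity of 12 fibroblast markers was 3178 to 5781 on the SM16 arrays and 8710 to 11588 on the TAN arrays, and 2 rose and 3 fell with all TAN arrays, whereas 0 rose and 1 fell with TAN replicate 4 alone. The median change of that list was 0.05 and 0.28, and at an unadjusted p under 0.05 with limma and TAN replicate 4 alone 4 rose and 1 fell. Of 5 skeletal muscle markers 0 rose and 4 fell with all TAN arrays, and 0 were called with TAN replicate 4 alone, where 1 had an unadjusted p under 0.05 (sums of 690 to 1511 and 1736 to 3403). T and NK cell markers summed to 2038 to 4338 on the SM16 arrays and 2455 to 10987 on the TAN arrays. With all TAN arrays 1 of 16 rose and 4 fell, and the median changes were -0.19 and 0.005. The T cell genes Cd3g, Cd247 and Cd2 were undetected on all 8 arrays. However, 7 markers of the list were detected on every SM16 array and 5 on every TAN array. Of 9 B and plasma cell markers, 0 were called in either limma fit and 0 had an unadjusted p under 0.05. Of 12 epithelial and mesothelial markers, 4 rose and 3 fell with all TAN arrays, and 1 rose and 1 fell with TAN replicate 4 alone. Cdh1, the epithelial cadherin, fell by 2.49 and 1.71, and Krt5, a keratin of basal epithelium undetected on all TAN arrays, was at least 1.02-fold and 1.24-fold higher. The Krt5 bound was lost when single arrays were left out. It was 0.95 without SM16 replicate 2, 0.99 without SM16 replicate 3 and 0.93 without TAN replicate 4. Of 11 erythroid markers 1 rose and 2 fell with all TAN arrays, and 1 rose and 0 fell with TAN replicate 4 alone. Epor, the erythropoietin receptor, was the concordant one, undetected on all TAN arrays and at least 1.73-fold and 2.11-fold higher, beside 7 undetected on all 8 arrays, among them Gata1, Alas2 and Slc4a1. The part of these cells in the other results was not tested.

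Among the neutrophil markers themselves, 3 of 18 rose and 2 fell with all TAN arrays, and 0 rose and 1 fell with TAN replicate 4 alone. Their median change was 0.10 with all TAN arrays, -0.19 after median scaling and -0.02 with TAN replicate 4 alone. Among all genes 17.8% rose and 28.2% fell with all TAN arrays, the background for the counts of the lists that follow. Granule proteins had medians of 0.17 and -0.13, with 6 of 22 higher and 7 lower in the first fit and 0 and 1 in the second. For respiratory chain subunits (51 genes), cytosolic ribosomal proteins (34 genes), cell cycle genes (28 genes) and Toll-like and inflammasome receptors (26 genes), 0 genes were called with TAN replicate 4 alone, while 9 rose and 12 fell, 10 and 3, 5 and 9, and 3 and 7 with all TAN arrays. At an unadjusted p under 0.05 with limma and TAN replicate 4 alone, 8 and 0, 3 and 0, 1 and 0, and 2 and 4 genes of these lists rose and fell, against 1791 genes of all tested. Adhesion molecules had 7 of 23 higher and 11 lower with all TAN arrays, and 1 and 4 with TAN replicate 4 alone; Alcam, an adhesion molecule that binds Cd6, fell by 1.62 and 1.76. Phagocytosis receptors and opsonins had 12 of 23 higher and 5 lower, and 1 and 0, with medians of 0.78 and 0.13. Lipid and cholesterol genes had 10 of 25 higher and 3 lower, and 0 and 1, and glycolysis and hypoxia genes 5 of 25 higher and 8 lower, and 0 and 1. Actin and motility genes had 11 of 37 higher and 12 lower, and 1 and 1, where Rhob, a small GTPase, fell by 0.69 and 0.96.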

How the data were processed

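The members, gene lists and rules were chosen with earlier results of these data known. The authors deposited a table of probe intensities on a linear scale, not background corrected, with a detection p-value beside each signal, exported from GenomeStudio per the submitters' processing notes, and an intensity table that the deposited values show to be quantile normalized. Here neqc of limma 3.58.1 (R 4.3.3) corrected the background of the first table, inferred from the deposited detection p-values, added an offset of 16, quantile normalized and took log2. Probes with a detection p under 0.01 on 3 or more arrays were kept (13945), and 857 of them had no gene symbol in the annotation and were left out. The remaining 13088 gave 9523 genes, with the probe of highest mean standing for each gene. All 4 groups (NN, G-MDSC, TAN and SM16) were fitted in 1 linear model per gene (15 residual degrees of freedom, variance trend), with 2-sided tests and Benjamini-Hochberg adjustment over all genes. All adjusted p-values are from limma. The fit with TAN replicate 4 alone dropped TAN replicates 1 and 2 (13 degrees of freedom). The number of arrays limits the precision.

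Named genes were the concordant genes ranked by the smaller of their 2 changes (15 falls, 15 rises outside the hair follicle list, 5 in it, up to 3 per list) and 18 fixed genes. Of 44 lists, 29 describe functions and 15 are cell markers; some share members. A gene undetected on every array of its dimmer group has a bound, "at least N-fold", the mean of the brighter group over the dimmer one raised to the lowest detected value of each array. For named genes that rose and were undetected on every TAN array, the second bound exceeds the first by the same factor. That factor comes from the lower detection limit of TAN replicate 4. For those genes the second bound therefore adds no agreement of its own. The calculation was tested on simulated data with independent normal noise, which held no split between TAN arrays and no probe differences. A first limit on the recovery of large changes was missed and was replaced after this was seen. Alternatives covered background, scaling, filters, probe choice, arrays in the fit, array weights, the replicate number as a block, the authors' normalized table and leaving out each array. Deviations of same-numbered SM16 and TAN arrays from their group means correlated at r = -0.217, -0.204 and -0.071 for numbers 1, 2 and 4. The split of TAN replicates 1 and 2 from replicate 4 dominates the TAN deviations. This check therefore cannot tell whether the numbers pair the samples, and no pairing was assumed in the main fits.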

Additional observations from a re-analysis of the deposited data

Results flagged for a closer look

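In the SM16 group of 5 arrays, 121 values (named genes and list medians) were examined for a single array far from the other 4, and 8 met the limit. Chance alone flags about 1 in 20. Hic1 stood at 6.20 on SM16 replicate 5, against 4.80 to 5.19 on the others, and still below every TAN array. Birc3 stood at 7.68 on SM16 replicate 3, against 6.85 to 6.98, and Ctsl at 8.52 on SM16 replicate 2, against 7.86 to 8.04. SM16 replicate 3 also held 3 list medians apart: actin cytoskeleton and motility genes at 11.3 (others 11.9 to 12.2), skeletal muscle markers at 6.68 (others 5.52 to 5.84) and erythroid markers at 4.61 (others 4.79 to 4.85). The median of immediate early genes was 10.4 on SM16 replicate 1 (others 10.7), and that of neutrophil markers 13.97 on SM16 replicate 5 (others 14.18 to 14.24).

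Among the genes tested, 46% were called with all TAN arrays, and the share called the same way in both fits is given above. Probes with no gene symbol were not part of that comparison. Of 857 past the filter, 408 were called with all TAN arrays, and 27 were called the same way in both fits, 8 of them higher and 19 lower after SM16.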

How the results depend on the processing

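The count of 4380 called genes became 2365 when only the SM16 and TAN arrays were fitted, 7461 with array weights (whose estimation stopped before full convergence) and 451 with TAN replicate 4 alone. The count at 2-fold or more, 1944, became 935 without background correction, 966 in the authors' normalized table, 3226 with array weights and 286 with TAN replicate 4 alone. Leaving out 1 array at a time gave 2276 to 6018 and 1210 to 3262 genes. Without TAN replicate 1 the counts were 2276 and 1210, without TAN replicate 2 they were 2424 and 1293, and without TAN replicate 4 they were 6018 and 3262. With the replicate block, whose numbers are not known to pair the samples, the counts were 4047 and 2133. Every count not given here stayed within 1.5 times of these. Of the genes called at 2-fold or more, 1463 rose and 1799 fell without TAN replicate 4, 1433 and 1793 with array weights and 723 and 725 in the fit of SM16 and TAN only, whereas 661 rose and 274 fell without background correction, 681 and 285 in the authors' table and 1151 and 645 with median scaling. Ccl3 lost its call with the replicate block (adjusted p = 0.0512).

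All 65 named concordant genes kept their direction under the 18 settings, which in many settings follows from how they were chosen. The lack of overlap fixes the direction with TAN replicate 4 alone and with each array left out. It also fixes it with array weights and in the fit of SM16 and TAN only. The condition on probes fixes it for the mean of all probes. Among these genes 1, Cd1d1, lost its call with median scaling. Of the 273 concordant genes, 263 were called in the same direction in the fit of SM16 and TAN only and 257 with median scaling, and at least 271 under every other setting. With TAN replicate 4 alone Tnf (-0.21), Icam1 (-0.17) and Arg1 (-0.17) had the opposite sign. Tgfbi had a change of 1.14 (adjusted p = 0.00987) with the mean of its probes. The cause of these shifts was not tested, except that a fit with fewer arrays has less power by construction.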
